A study of Mus musculus with 40 samples.

Results

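Cdh5, Eng and Cd34 encode proteins of the endothelial cell surface, and their levels are described across mouse cells and tissues. The members are the array spots whose single gene symbol is one of these names. Each gene had exactly 1 such spot, so 3 of 5760 spots and 3 of 3284 named genes were taken. Spots were picked by gene symbol alone, but the 3 genes were chosen with earlier results of these data known.

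RNA was measured on nylon filter arrays carrying cDNA spots, each filter hybridized with one radioactively labelled sample. The 40 arrays fall into 14 groups. Adherent stroma-vascular cells of inguinal white adipose tissue (3 samples) were released with collagenase and kept in culture for 24 h, after which only attached cells were taken. Adipocytes of the same fat depot (3) were released with collagenase and washed. Peritoneal macrophages (3) were washed out of the peritoneal cavity and plated for 24 h to remove cells that did not attach. Tibialis muscle (2) and liver (2) were dissected as whole tissue. The macrophage lines were Raw 264 (3) and J774 (2). 3T3-F442A adipocytes (3) were kept with rosiglitazone for 7 days after confluence, and C2C12 myotubes (2) were kept in low-serum differentiation medium for 7 days. The growing cultures were C2C12 myoblasts (3), ZIN40 embryonic stem cells with the cytokine LIF (3) or without it (3), the mesenchymal line C3H-10T1/2 (3) and 4 preadipocyte lines (3T3-L1 with 2 samples, 3T3-F442A, Ob1774 and Hgfu with 1 each). The preadipocyte lines were used as a single group, with the 3T3-L1 samples averaged. Strain, sex and age of the animals, and whether samples of a group came from separate animals or cultures, were not stated in any source consulted. For the C2C12 myoblasts the title was used, since another label names them as preadipocytes.

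Endothelial cells line blood vessels. Cdh5 encodes VE-cadherin, the adhesion molecule that joins neighbouring endothelial cells at adherens junctions and is bound inside the cell by catenins. Eng encodes endoglin, a co-receptor for ligands of the TGF-beta and BMP family that acts with the type I receptor ALK1, the product of Acvrl1, and signals through SMAD proteins. Cd34 encodes a sialomucin related to podocalyxin and endoglycan, the product of Podxl2. CD34 is carried by capillary endothelium, by blood-forming progenitors and, in fat, by adipose progenitor cells as well. Endoglin is also found on activated macrophages and on mesenchymal cells, so Cdh5 is the member most restricted to endothelium.

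The upstream sequences of Cd34 and Eng are shown because ETS-family transcription factors, which bind a GGAA core, are known regulators of endothelial genes. The table of promoters from RefSeq (GRCm38.p6) held 2 of the 3 genes, and Cdh5 is named only. Each sequence holds the 250 bases before the annotated start of the gene on the plus strand, and capitals mark GGAA or its reverse complement TTCC.
Cd34, chr1:194938571-194938820: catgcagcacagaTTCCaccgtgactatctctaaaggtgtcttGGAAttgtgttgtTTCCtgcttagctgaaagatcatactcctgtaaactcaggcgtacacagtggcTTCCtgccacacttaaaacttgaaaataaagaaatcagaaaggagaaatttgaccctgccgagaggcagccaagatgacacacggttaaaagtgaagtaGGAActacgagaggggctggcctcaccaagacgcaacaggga
Eng, chr2:32646345-32646594: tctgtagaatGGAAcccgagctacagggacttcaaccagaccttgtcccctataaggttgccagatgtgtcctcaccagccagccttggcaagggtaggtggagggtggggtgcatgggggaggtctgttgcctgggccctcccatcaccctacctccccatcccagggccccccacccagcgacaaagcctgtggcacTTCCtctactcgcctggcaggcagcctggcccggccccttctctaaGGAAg
The Cd34 window held 5 such cores and the Eng window 3. Of 32851 windows of the same length, 93.4% held at least 1 core, 18.0% at least 5 and 54.7% at least 3, so the letters are common. CANNTG, the E-box, was found once in the Eng window and not in the Cd34 window, and 66.2% of all windows held it. Neither window held GATAA (22.6% of all windows) or GGGCGG (32.7%). Both strands were searched, and a match of letters is a description of the sequence and not a measured binding site.

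Across the 13 groups other than ES cells without LIF, the medians of the within-group SDs were 0.15 for Cdh5, 0.13 for Eng and 0.12 for Cd34 on the log2 scale. The 3 arrays of ES cells without LIF hold intensities of another kind, where the 99th percentile exceeded the median 60.0 to 391 times. On the other 37 arrays it did so 3.87 to 17.5 times. The members' values in ES cells without LIF are therefore given last and set against no other group. Their arrays still enter the residual spread that all 14 groups share in the fit, and so the SE and p of each comparison. Median intensities of those 37 arrays ran between 18.9 and 132 k (1 k is 1000 intensity units) before normalization. The files give no background reading and no detection call, so whether a spot lies above background is unknown, and the lowest spot of each of those 37 arrays stood at 7.68 k or more. All levels below are spot intensities in k after quantile normalization. All differences are on a log2 scale with an offset of 36370 added to each intensity, which understates differences of dim spots. Genes of other cell types were read beside the tissue labels. Their lists were chosen with earlier results of these data known, so they are no independent check of the labels. The summed intensity of 8 skeletal muscle genes was 2788 to 2853 k in tibialis muscle and at most 1457 k elsewhere. That of 6 liver genes was 926 and 3535 k in liver and at most 541 k elsewhere. The 2 liver arrays were unlike each other, with an r of 0.82 over all spots, the lowest within any group. Of the 6 liver genes, Ttr differed by only 0.07 between liver and tibialis muscle. Of the 8 muscle genes, Tnnc1 was lower in tibialis muscle than in C2C12 myotubes (-1.75). The sum of 6 macrophage genes was 859 to 1097 k in peritoneal macrophages, 542 to 911 in Raw 264, 419 to 440 in J774 and at most 390 k in the other groups, where 390 belonged to stroma-vascular cells.

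**Figure D1:**
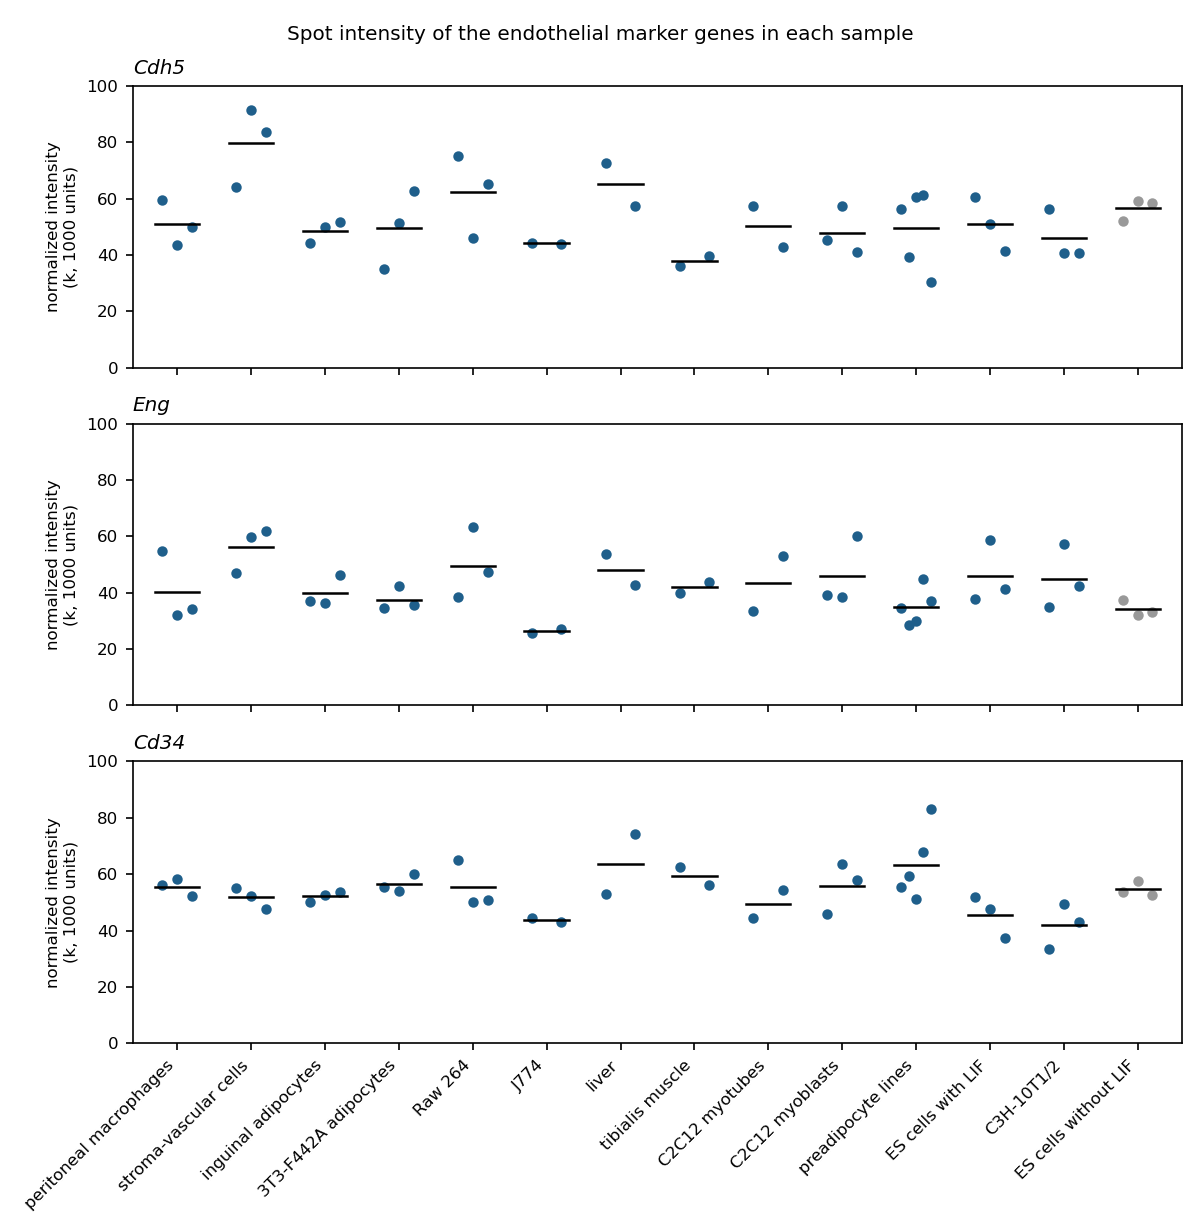
Spot intensity of Cdh5, Eng and Cd34 after quantile normalization, in k (1000 intensity units), for each of the 40 samples by group. Points are samples and bars are group means over samples; grey points are the arrays of ES cells without LIF. The 3 stroma-vascular samples of Cdh5, at 64.0 to 91.5 k, lie above all inguinal adipocyte, peritoneal macrophage, tibialis and preadipocyte samples, while the groups of Cd34 lie close together.

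Cdh5 was brightest in stroma-vascular cells. Its intensity was 64.0, 91.5 and 83.8 k in the 3 stroma-vascular samples, which was above 70.3%, 87.3% and 84.8% of the spots on the same arrays. In liver it was 72.7 and 57.4 k. In the Raw 264 macrophage line it was 75.2, 46.1 and 65.3 k, and 2 of these samples were brighter than the dimmest stroma-vascular sample. Only Raw 264 and liver overlapped with the stroma-vascular range.

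All other groups had lower Cdh5 values. Peritoneal macrophages had 59.6, 43.7 and 50.1 k, and inguinal adipocytes 44.3, 50.1 and 51.6 k. J774 macrophages had 44.2 and 44.0 k. No sample of these groups reached the stroma-vascular range. 3T3-F442A adipocytes had 35.0, 51.3 and 62.6 k, C2C12 myotubes 57.3 and 43.0 k, and C2C12 myoblasts 45.3, 57.5 and 41.2 k. ES cells with LIF had 60.7, 51.1 and 41.6 k, and C3H-10T1/2 cells 56.5, 40.8 and 40.9 k. The preadipocyte lines spread widely, with 56.3 and 39.3 k in 3T3-L1, 60.5 in 3T3-F442A, 61.3 in Ob1774 and 30.3 in Hgfu. Tibialis muscle was dimmest of all, with 36.0 and 39.8 k, above 9.3% and 17.4% of the spots on its arrays.

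Group means of Cdh5 on the log2 scale spanned 0.64 between stroma-vascular cells at the top and tibialis muscle at the bottom. Ordered by mean, the groups ran stroma-vascular cells, liver, Raw 264, peritoneal macrophages, ES cells with LIF, C2C12 myotubes, preadipocyte lines, 3T3-F442A adipocytes, inguinal adipocytes, C2C12 myoblasts, C3H-10T1/2, J774 and tibialis muscle. The first step, 0.19 between stroma-vascular cells and liver, exceeded both groups' SDs although their samples overlapped. J774 and tibialis muscle were the only neighbours in that order whose step, 0.12, exceeded both groups' SDs and whose samples did not overlap. The order of the groups between liver and J774 was not resolved beyond their spread. The moderated F-test over the 13 groups gave an adjusted p of 0.114 for Cdh5, where 10.9% of all spots were called by that test.

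Eng also had its highest group mean in stroma-vascular cells, with 47.2, 59.7 and 62.1 k, although the brightest single sample was one of Raw 264. Raw 264 had 38.5, 63.2 and 47.3 k and liver 53.8 and 42.7 k, so both overlapped with the stroma-vascular samples. ES cells with LIF had 37.8, 58.7 and 41.3 k, C2C12 myoblasts 39.1, 38.5 and 60.0 k, and C3H-10T1/2 cells 35.0, 57.4 and 42.5 k. In each of these 3 cultures a single sample reached the stroma-vascular range. C2C12 myotubes had 33.6 and 53.2 k, with the same kind of gap between samples, and tibialis muscle 40.1 and 44.0 k.

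In peritoneal macrophages Eng was 54.7, 32.0 and 34.3 k. The first of these samples lay inside the stroma-vascular range and the others below it. Inguinal adipocytes had 37.0, 36.3 and 46.4 k, and 3T3-F442A adipocytes 34.5, 42.5 and 35.6 k. Among the preadipocyte lines, 3T3-L1 had 34.7 and 28.5 k, 3T3-F442A 30.1, Ob1774 44.9 and Hgfu 37.2 k, all below the stroma-vascular samples. J774 had 25.9 and 27.2 k, above only 0.3% and 0.6% of the spots on its arrays, so Eng was among the dimmest spots there.

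Group means of Eng spanned 0.56 on the log2 scale between stroma-vascular cells and J774. The order below stroma-vascular cells was Raw 264, liver, ES cells with LIF, C2C12 myoblasts, C3H-10T1/2, C2C12 myotubes, tibialis muscle, inguinal adipocytes, peritoneal macrophages, 3T3-F442A adipocytes, preadipocyte lines and J774. No step between neighbours down to the preadipocyte lines exceeded both groups' SDs, and the step of 0.20 from these lines to J774 did, with no overlap of samples. The F-test gave an adjusted p of 0.255 for Eng.

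Cd34 did not follow Cdh5 and Eng. Stroma-vascular cells had 55.1, 52.4 and 47.7 k, and inguinal adipocytes had 50.3, 52.5 and 53.8 k. Peritoneal macrophages had 56.2, 58.2 and 52.4 k. These 3 primary cell types overlapped. The preadipocyte lines had the highest mean, with 55.5 and 59.3 k in 3T3-L1, 51.3 in 3T3-F442A, 67.8 in Ob1774 and 83.0 in Hgfu. Liver had 52.8 and 74.4 k and tibialis muscle 62.5 and 56.1 k. Hgfu, which was brightest for Cd34, was the dimmest sample for Cdh5.

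3T3-F442A adipocytes had 55.6, 53.9 and 59.9 k of Cd34, and C2C12 myoblasts 46.0, 63.6 and 57.9 k. Raw 264 had 65.2, 50.3 and 50.8 k, C2C12 myotubes 44.5 and 54.4 k, and ES cells with LIF 52.0, 47.6 and 37.3 k. J774 had 44.3 and 42.9 k and C3H-10T1/2 33.5, 49.5 and 43.1 k, the lowest means. The means spanned 0.36 on the log2 scale, less than for Cdh5 or Eng. Below the preadipocyte lines the order was liver, tibialis muscle, 3T3-F442A adipocytes, peritoneal macrophages, C2C12 myoblasts, Raw 264, inguinal adipocytes, stroma-vascular cells, C2C12 myotubes, ES cells with LIF, J774 and C3H-10T1/2, and all these neighbours overlapped or differed by less than their SDs. The F-test gave an adjusted p of 0.182 for Cd34.

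ES cells without LIF had 52.1, 59.2 and 58.6 k of Cdh5, 37.6, 32.2 and 33.3 k of Eng and 53.8, 57.6 and 52.7 k of Cd34. Because of the different kind of intensities on these arrays, they were set against no other group.

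Over the 13 group means, Cdh5 and Eng correlated with a Pearson r of 0.67, against 0.15 for Cd34 and Cdh5 and 0.14 for Cd34 and Eng. Over 36 single samples, with 3T3-L1 averaged, the values were 0.28, -0.04 and 0.05. These are descriptions, since the points of each pair share arrays and the normalization. Lrrc3 (r = 0.88), Clptm1 (0.82) and Bsn (0.82) had the group means most like those of Cdh5 among named genes. Over the 36 samples Clptm1 and Bsn kept r values of 0.70 and 0.69 with Cdh5, whereas Lrrc3 had 0.21. The genes most like Eng were Slc44a5 (0.81), Senp3 (0.76) and Foxn3 (0.74), with 0.12, 0.33 and 0.22 over single samples. Those most like Cd34 were Ufm1 (0.85), Pdik1l (0.82) and Ssr2 (0.81), with 0.53, 0.61 and 0.32 over single samples. These names depend on the measure. Ranked by Spearman's rho over the group means, 0 of the 3 genes for Cdh5, 0 of 3 for Eng and 2 of 3 for Cd34 were again among the first 3, and by Pearson's r over single samples 2 of 3 for Cdh5, 0 of 3 for Eng and 0 of 3 for Cd34.

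Stroma-vascular cells were first set against the adipocytes of the same depot. The stroma-vascular samples hold only cells attached after 24 h of culture, whereas the adipocytes were released and washed. Cell type and the effects of culture or attachment therefore cannot be told apart in this comparison. Every stroma-vascular sample was brighter than every adipocyte sample for Cdh5 and for Eng. The mean intensity was 1.64 times that of adipocytes for Cdh5 and 1.41 times for Eng. On the log2 scale the differences were 0.44 ± 0.14 (SE; 95% interval 0.16 to 0.72; limma adjusted p = 0.180) for Cdh5 and 0.28 ± 0.13 (0.01 to 0.55; adjusted p = 0.530) for Eng. Cd34 differed by -0.01 ± 0.11 (-0.23 to 0.21; adjusted p = 0.996). None of the 3 genes was called, that is, had a limma p adjusted by Benjamini-Hochberg over all 5760 spots under 0.05, where 0.625% of all spots were. At unadjusted p under 0.05, 519 spots passed, Cdh5 and Eng among them. Samples of these groups do not overlap, with the stroma-vascular samples higher, for 9.17% of all spots, so the separation of 2 members is not rare. Replicate numbers were taken to pair these samples because deviations of same-numbered samples correlated at 0.10 to 0.39, the lowest just over the cut of 0.1. This pairing was read from the data and not from a label. With these groups fitted alone and the number as a block (2 residual degrees of freedom), the Cdh5 difference was 0.44 with a limma adjusted p of 0.0286. RNA was extracted from whole populations, so fewer cells of a type and less RNA per cell cannot be told apart here or below.

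Against the preadipocyte lines, Cdh5 and Eng showed differences of similar size. Cdh5 differed by 0.44 ± 0.13 (0.18 to 0.70; adjusted p = 0.240) and Eng by 0.36 ± 0.12 (0.11 to 0.61; adjusted p = 0.394). Neither was called, where 0.191% of all spots were, and both had all stroma-vascular samples above all lines, as 4.76% of spots did. Cd34 had -0.19 ± 0.10 (-0.39 to 0.01; adjusted p = 0.627), with overlapping samples.

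All peritoneal macrophage samples lay below all stroma-vascular samples for Cdh5, with a difference of -0.41 ± 0.14 (-0.69 to -0.13; adjusted p = 0.460). Eng differed by -0.28 ± 0.13 (-0.55 to -0.02; adjusted p = 0.859) and the groups overlapped through macrophage replicate 1. Cd34 had 0.06 ± 0.11 (-0.15 to 0.28). None was called, where 0.451% of all spots were, and 7.60% of spots had all macrophage samples below all stroma-vascular samples. The comparisons with adipocytes, preadipocyte lines, macrophages, tibialis muscle and liver share the same 3 stroma-vascular samples, so their values are not independent of each other.

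No member was called in peritoneal macrophages against the cultured lines. Peritoneal macrophages against the preadipocyte lines gave 0.03 ± 0.13 for Cdh5, 0.08 ± 0.12 for Eng and -0.13 ± 0.10 for Cd34, none called, where 0.712% of spots were. Against the macrophage lines they gave -0.02 ± 0.12 for Cdh5, 0.05 ± 0.12 for Eng and 0.10 ± 0.10 for Cd34, none called, where 2.90% of spots were. The 95% intervals of these 6 differences reached no further than 0.33 from 0 in either direction. The macrophage lines against the preadipocyte lines gave 0.06 ± 0.11 for Cdh5, 0.02 ± 0.11 for Eng and -0.23 ± 0.09 for Cd34 (-0.41 to -0.05; adjusted p = 0.256), none called, where 0.521% of spots were.

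Among the tissues, Cdh5 was called in only 1 comparison, stroma-vascular cells against tibialis muscle. The stroma-vascular samples at 64.0, 91.5 and 83.8 k lay above the tibialis samples at 36.0 and 39.8 k, a mean 2.11 times as high. Cdh5 was higher by 0.64 ± 0.15 (0.33 to 0.95; limma adjusted p = 0.0209), and it was the only member called in any of the 15 comparisons. In that comparison 1.91% of all spots were called, 0.972% in the same direction, and 17.2% had all stroma-vascular samples above both tibialis samples. Eng differed by 0.24 ± 0.15 (-0.06 to 0.54; adjusted p = 0.573) and Cd34 by -0.12 ± 0.12 (-0.36 to 0.12), with all stroma-vascular samples above the tibialis samples for Eng and below them for Cd34, an order holding for 20.3% of spots. The Cdh5 call rests on few arrays: it was kept without stroma-vascular replicate 1 (0.74, adjusted p = 0.0156) and lost without replicate 2 (0.57, 0.111), replicate 3 (0.61, 0.0697), tibialis replicate 1 (0.60, 0.203) or tibialis replicate 2 (0.68, 0.173). It was also lost with median scaling of the arrays (0.67, adjusted p = 0.103) and after subtraction of each array's 5th percentile (2.70, 0.0593).

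In stroma-vascular cells against tibialis muscle, Mtmr3, the spot listed just before Cdh5, had -0.07 and Casc3, listed just after, had 0.11. Whether spots next to each other in the list were neighbours on the filter was not checked. A local effect on the filter was not tested.

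Liver and stroma-vascular cells overlapped for all 3 genes. Stroma-vascular cells against liver gave 0.19 ± 0.15 for Cdh5 (-0.12 to 0.51; adjusted p = 0.569), 0.13 ± 0.15 for Eng and -0.17 ± 0.12 for Cd34, none called, where 2.93% of spots were. Liver against tibialis muscle gave 0.45 ± 0.17 for Cdh5 (0.10 to 0.79; adjusted p = 0.184), with both liver samples above both tibialis samples, as for 22.6% of spots. Eng had 0.11 ± 0.16 and Cd34 0.06 ± 0.13 there, and none was called, where 1.88% of spots were.

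Inguinal adipocytes and the whole tissues gave no call for a member. Adipocytes against liver gave -0.25 ± 0.15 for Cdh5, with all adipocyte samples below both liver samples (17.7% of spots), -0.15 ± 0.15 for Eng and -0.17 ± 0.12 for Cd34, where 3.77% of all spots were called. Adipocytes against tibialis muscle gave 0.20 ± 0.15 for Cdh5, -0.04 ± 0.15 for Eng and -0.11 ± 0.12 for Cd34, where 0.382% of spots were called. All adipocyte samples lay above both tibialis samples for Cdh5 and below them for Cd34, as 13.8% and 13.1% of spots did. Tibialis muscle against C2C12 myotubes, the tissue against its cultured counterpart, gave -0.22 ± 0.17 for Cdh5, -0.01 ± 0.16 for Eng and 0.16 ± 0.13 for Cd34, where 0.920% of spots were called. For Cdh5 both tibialis samples lay below both myotube samples, and for Cd34 above them, as 18.5% and 22.0% of all spots did. These intervals are wide, with -0.56 to 0.13 for Cdh5 in tibialis muscle against myotubes.

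In the remaining comparisons all differences of members were within 0.12 of 0. Inguinal adipocytes against 3T3-F442A adipocytes gave -0.07 ± 0.11 for Cd34 and 0.05 ± 0.13 for Eng, where 2.47% of spots were called. All inguinal adipocyte samples lay below the 3T3-F442A adipocyte samples for Cd34, as 12.5% of spots did. 3T3-F442A adipocytes against the preadipocyte lines gave -0.12 ± 0.10 for Cd34 and 0.03 ± 0.12 for Eng, where 0.156% were called. ES cells with LIF against C3H-10T1/2 gave 0.07 ± 0.11 for Cd34, 0.09 ± 0.14 for Cdh5 and 0.02 ± 0.13 for Eng, where 0.208% were called. None of the 3 genes was called in these comparisons.

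**Figure D2:**
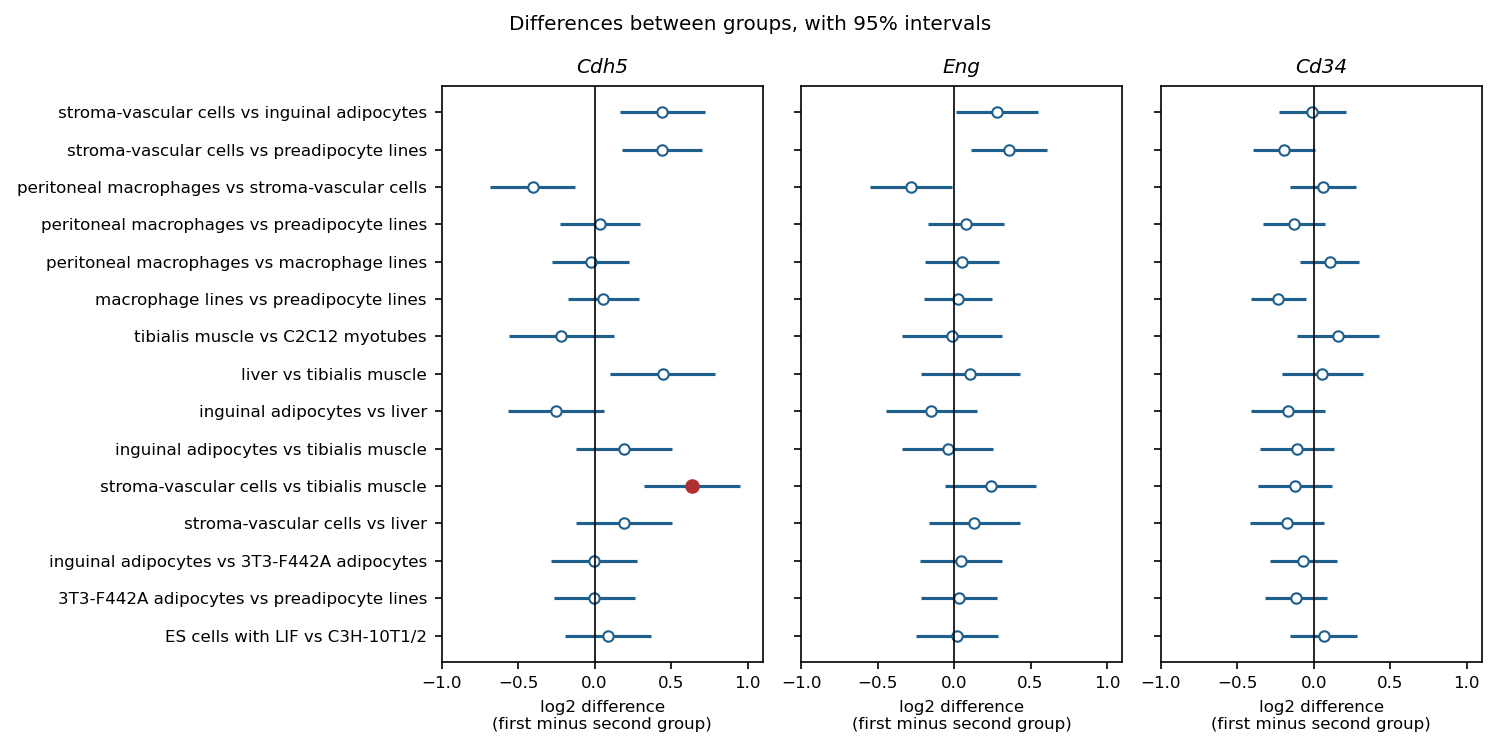
Differences of Cdh5, Eng and Cd34 in each of the 15 comparisons, as log2 of the first group minus the second, with 95% intervals from the limma fit. The filled red point is the only call, Cdh5 in stroma-vascular cells against tibialis muscle (0.64, interval 0.33 to 0.95); open points were not called.

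Other endothelial genes were taken from a list of 40, of which 3 had a named spot here: Thbd, encoding the anticoagulant receptor thrombomodulin, Klf2, encoding a flow-responsive transcription factor, and Sox17, encoding an arterial transcription factor. The other 37 were not analysed here. Thbd had 84.2, 151.9 and 98.7 k in stroma-vascular cells and 41.1 and 52.1 k in liver. It was higher by 0.81 ± 0.18 (adjusted p = 0.00801), the only call among the 3 in any comparison, and the call was lost without liver replicate 1 (0.72, adjusted p = 0.109) or stroma-vascular replicate 2 (0.62, 0.0796). It was also lost with median scaling (0.93, adjusted p = 0.103) and with these groups fitted alone (0.81, 0.165; 0.86 and 0.143 with the replicate number as a block).

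Thbd had 71.4, 91.4 and 63.1 k in inguinal adipocytes, overlapping with stroma-vascular cells, and 81.5 and 51.2 k in tibialis muscle. The cultured line C3H-10T1/2 had 82.1, 91.8 and 43.0 k and overlapped with stroma-vascular cells as well. In peritoneal macrophages it was 68.6, 78.9 and 64.5 k, below the stroma-vascular samples, an order holding for 7.60% of all spots. The differences of stroma-vascular cells were 0.39 ± 0.16 against adipocytes (adjusted p = 0.452), 0.49 ± 0.15 against preadipocyte lines (0.315) and 0.52 ± 0.18 against tibialis muscle (0.174), and macrophages against stroma-vascular cells gave -0.44 ± 0.16 (0.569). None of these was called. Klf2 had 66.8, 53.1 and 52.9 k in stroma-vascular cells and 51.0, 48.0 and 49.1 k in adipocytes. Sox17 had 47.8, 52.8 and 51.7 k in stroma-vascular cells and 67.9, 56.5 and 60.5 k in adipocytes, with the adipocyte samples on top. Over the list, 0 of 3 genes were called in stroma-vascular cells against adipocytes by limma, with a median of 0.13 against -0.02 over all spots. Against tibialis muscle 0 of 3 were called, with a median of 0.14 against -0.01, and against liver 1 of 3, with a median of 0.16 against 0.00. The summed intensity of the 3 genes was 198.8, 257.8 and 203.4 k in stroma-vascular cells and at most 195.9 k in any other sample, an adipocyte sample. Thbd was the largest part of this sum in each stroma-vascular sample. Sox17 was lower in stroma-vascular cells than in adipocytes. Klf2 had its highest group median in stroma-vascular cells, at 53.1 k against 51.8 k in Raw 264. Its brightest single sample, at 74.6 k, was one of Raw 264.

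**Figure D3:**
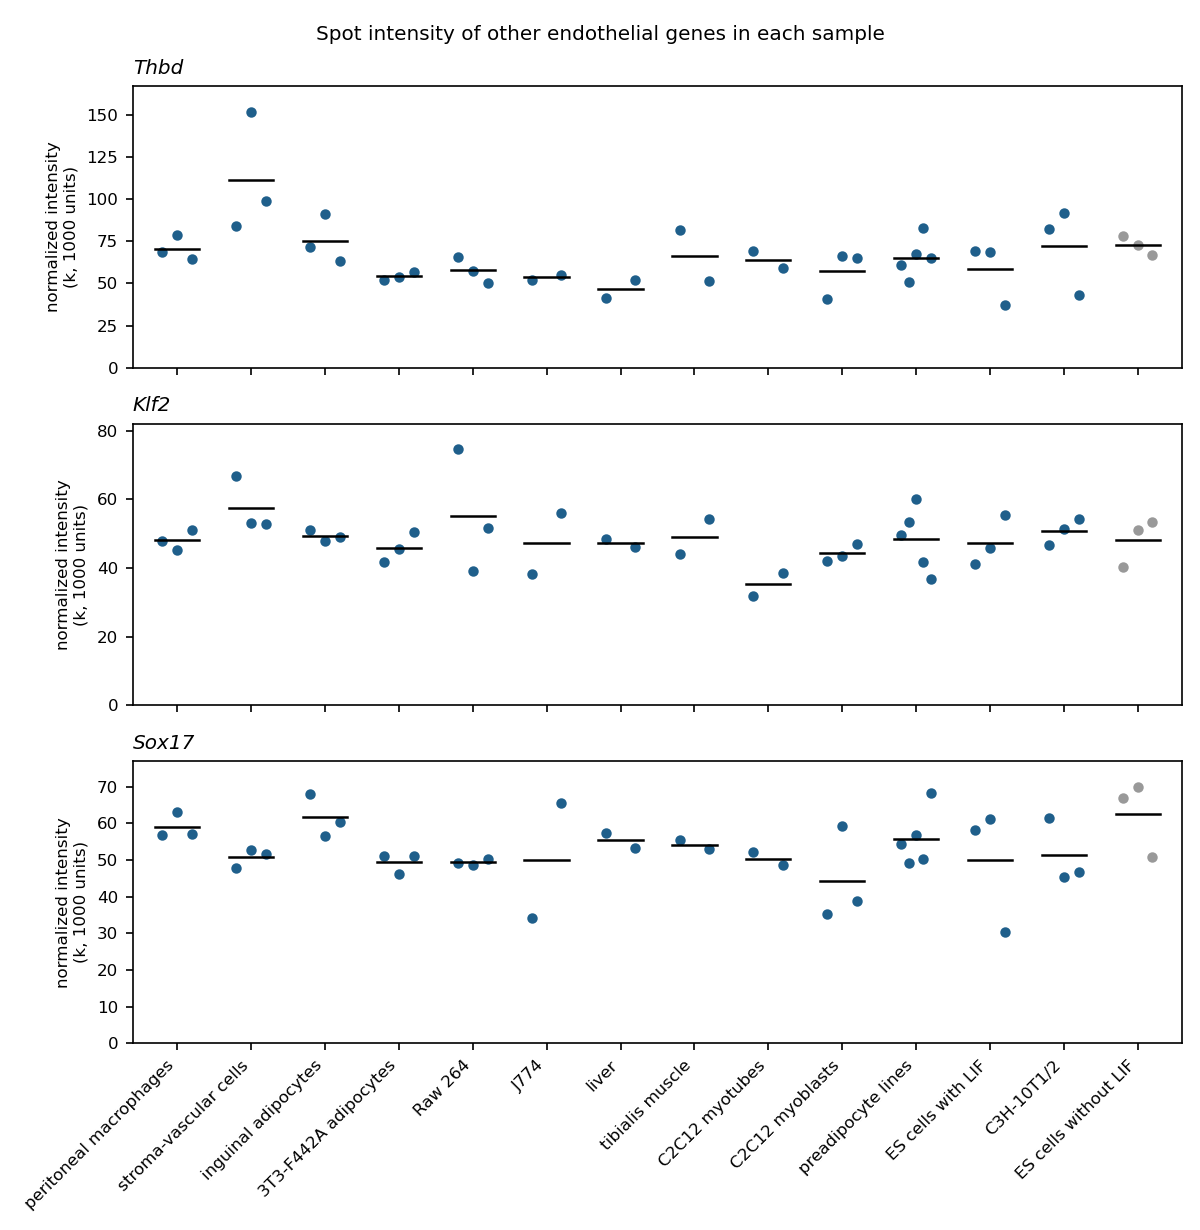
Spot intensity of Thbd, Klf2 and Sox17 after quantile normalization, in k (1000 intensity units), for each of the 40 samples by group. Points are samples, bars are group means over samples and grey points are the arrays of ES cells without LIF. Thbd reached 84.2 to 151.9 k in stroma-vascular cells against 41.1 and 52.1 k in liver, while all stroma-vascular samples of Sox17 lie below those of inguinal adipocytes.

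Genes of the families, junctions or signalling of the 3 proteins had 13 named spots. Of their 195 differences over the 15 comparisons, 3 were called (1.54%), all of Podxl2. Over all spots the share was 1.33%, so the count is near the background. Of 14 genes of cadherin junctions, 4 had a named spot: Cdh1 and Cdh2, encoding E- and N-cadherin, the tight junction scaffold gene Tjp1 and the small GTPase gene Rhoa. None of the 4 was called in any of the 15 comparisons. In stroma-vascular cells against tibialis muscle they had -0.15, 0.07, -0.14 and 0.23, with a median of -0.03 over the list.

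Of 26 genes of TGF-beta and BMP signalling, 7 had a named spot, and 0 of 7 were called in any of the 15 comparisons. Acvrl1, the receptor partner of endoglin, had 77.8, 58.9 and 53.0 k in stroma-vascular cells and 72.9, 48.4 and 45.2 k in adipocytes, and differed by 0.12 ± 0.12 (adjusted p = 0.880). Tgfbr3, encoding the related co-receptor betaglycan, had 46.5, 67.6 and 59.5 k in stroma-vascular cells and 34.4, 36.2 and 33.5 k in adipocytes. These samples did not overlap, as for 9.17% of all spots in that direction, and the difference of 0.40 ± 0.15 was not called (limma adjusted p = 0.346). Smad4, the common SMAD, had 0.25, the ligand gene Tgfb2 -0.25, Smad2 0.14, Smad3 -0.07 and Id1, a target of BMP signalling, -0.12. The list median was 0.12 in stroma-vascular cells against adipocytes, -0.08 against preadipocyte lines and -0.02 against tibialis muscle.

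Of 9 genes of the CD34 family and its binding partners, 2 had a named spot, Podxl2 and the adaptor gene Crkl. Podxl2 had 428.0 and 59.3 k in the 2 liver samples and between 30.6 and 77.7 k in all other samples. It was called higher in liver than in tibialis muscle (1.45 ± 0.35, adjusted p = 0.0182), and lower in stroma-vascular cells (-1.45 ± 0.32, 0.00651) and in adipocytes (-1.29 ± 0.32, 0.0188) than in liver. Without liver replicate 1 these were 0.31, -0.31 and -0.15 and none was called, so that the calls rest on 1 array. The call in liver against tibialis muscle was also lost without tibialis replicate 1 (1.51) or 2 (1.38, adjusted p = 0.181), and that in adipocytes against liver without adipocyte replicate 1 (-1.16, 0.0895). All 3 were lost with median scaling (0.85, -0.91 and -0.75), after subtraction of the 5th percentile and with the groups fitted alone. Crkl was called in no comparison.

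Markers of other cells in the stroma-vascular preparation were read beside these results. The 6 macrophage genes summed to 343 to 390 k in stroma-vascular cells and 340 to 364 k in adipocytes, and the 4 adipocyte genes to 255 to 304 k in stroma-vascular cells and 379 to 583 k in adipocytes. Of the adipocyte genes, Retn (-0.89) and Pnpla2 (-0.63) were called lower in stroma-vascular cells than in adipocytes. The 3 stromal progenitor genes Cd24a, Itgb1 and Nt5e summed to 185 to 229 k in stroma-vascular cells, 153 to 212 k in adipocytes and 225 to 252 k in tibialis muscle. The 3 matrix genes Timp2, Col4a1 and Eln summed to 331 to 375 k in stroma-vascular cells, 253 to 362 k in adipocytes and 247 to 327 k in tibialis muscle. Neither list had a call in stroma-vascular cells against adipocytes, preadipocyte lines or tibialis muscle, with 0 of 3 genes each by limma.

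In stroma-vascular cells against liver, and in peritoneal macrophages against stroma-vascular cells, genes of these lists were called. Col4a1, encoding a chain of the type IV collagen of basement membranes, had 162.6, 154.0 and 143.5 k in stroma-vascular cells and 73.7 and 46.6 k in liver. It was called higher by 0.99 ± 0.18 (limma adjusted p = 8.05e-04), in the same comparison as Thbd. Timp2, encoding a metalloproteinase inhibitor, had 0.93 ± 0.35 there and was not called (adjusted p = 0.153), and the median of the 3 matrix genes was 0.93 against 0.00 over all spots. In peritoneal macrophages Col4a1 had 57.5, 77.8 and 73.0 k and was called lower than in stroma-vascular cells (-0.85 ± 0.16, adjusted p = 0.00353), while Cd24a was called higher, with 123.1, 155.3 and 115.6 k in macrophages and 85.5, 58.2 and 42.8 k in stroma-vascular cells (0.78 ± 0.17, 0.0205).

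With median scaling none of these 3 calls was kept (1.13, -0.95 and 0.75). The Col4a1 call against liver was also lost with the replicate block (1.03, adjusted p = 0.0706), and that in macrophages after subtraction of the 5th percentile (-1.69) and without macrophage replicate 1 (-0.76, 0.0529). The Cd24a call was lost after that subtraction (1.89), with the groups fitted alone (0.78, adjusted p = 0.0701; 0.101 with the block), and without macrophage replicate 1 (0.82) or 2 (0.68) or stroma-vascular replicate 2 (0.76) or 3 (0.64). Of 10 genes of pericytes and smooth muscle, 0 had a named spot. The part of these cells in the Cdh5 and Eng values was not tested.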

How the data were processed

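RNA of 40 samples was labelled with 33P and hybridized to nylon filter arrays, and spots were quantified with Imagene, per the labels' protocols. Each deposited array holds 5760 intensities on a linear scale. The sources used here do not give the version, or say whether the authors subtracted background or rescaled. Of the spots, 3420 have 1 gene symbol in the platform annotation, 98 have several and 2242 have none, and 3346 of the first were matched by gene identifier to GRCm38.p6 names.

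Groups came from sample titles, and preadipocyte lines from source names. After quantile normalization, 36370 (the 10th percentile) was added to every intensity before log2. From these deposited intensities limma 3.58.1 (R 4.3.3) gave two-sided tests, with all 14 groups in 1 fit (25 residual degrees of freedom), the ES cells without LIF included. The Benjamini-Hochberg adjustment ran over 5760 spots, with 0.05 as the threshold of a call. The script was tested on simulated data. As nothing says that samples of a group were separate cultures or animals, p-values reflect only how these samples vary, possibly for technical reasons. The number of arrays limits precision.

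Members and gene lists were chosen with earlier results of these data known. Named were the members, the 3 genes most like each by Pearson r over 13 group means, and list genes that were called or had the smallest p. Other list genes and the spots listed beside Cdh5 were named after their values were seen. A gene with several spots is given by its brightest. Replicate numbers of the titles were taken to pair samples where every pair's deviations correlated over 0.1 with 3 pairs: stroma-vascular cells with adipocytes (0.10 to 0.39) and ES cells with LIF with C3H-10T1/2 (0.39 to 0.63). Alternatives were median scaling, subtraction of the 5th percentile, 4 times the offset, a floor, bright spots only, the compared groups only with and without a replicate block, no ES arrays without LIF, averaging of spots, removal of a trend along the table, array weights and leaving out each replicate. Figures were drawn with matplotlib 3.10.9.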

Additional observations from a re-analysis of the deposited data

How the results depend on the processing

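Of 497 values of the 3 members under other settings, 467 kept direction and side of the threshold. The call of Cdh5 in stroma-vascular cells against tibialis muscle (0.64) was lost with median scaling (0.67) and after subtraction of each array's 5th percentile (2.70), held in the other 9 settings, and was 0.57 to 0.74 with 1 sample left out, where 1 of 5 fits kept it. Not all settings that held the Cdh5 call test it equally. Averaging of spots could hardly change Cdh5, which has 1 spot, and the replicate block left 1 residual degree of freedom. Array weights, which ran from 0.34 to 7.83, added calls for Cdh5 and Eng: stroma-vascular cells against adipocytes (0.51 and 0.33) and against preadipocyte lines (0.50 and 0.45), macrophages against stroma-vascular cells (-0.51 and -0.42) and the F-test (F = 6.94 and 4.26). Removal of the trend along the table added Eng in stroma-vascular cells against preadipocyte lines (0.43, adjusted p = 0.0267). The causes were not tested. After the 5th percentile subtraction some log2 differences were larger without being called, as with Cdh5 in stroma-vascular cells against adipocytes (1.41, limma adjusted p = 0.603).

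Directions turned only for members not called. With median scaling these were Eng in macrophage lines against preadipocyte lines (-0.02), Cdh5 in adipocytes against 3T3-F442A adipocytes (0.03) and Eng in 3T3-F442A adipocytes against preadipocyte lines (-0.07). With the 5th percentile subtracted they were Eng in macrophages against macrophage lines (-0.09) and in tibialis muscle against myotubes (0.41), and Cdh5 in adipocytes against 3T3-F442A adipocytes (0.29) and in these against preadipocyte lines (0.03). With a floor they were Eng in macrophages against macrophage lines and in 3T3-F442A adipocytes against preadipocyte lines (both -0.01). With the trend removed they were Cd34 in stroma-vascular cells against adipocytes (0.03), Eng in tibialis muscle against myotubes (0.20), in liver against tibialis muscle and in 3T3-F442A adipocytes against preadipocyte lines (both -0.01), and Cdh5 in the last (0.07). With array weights they were Cdh5 in macrophages against preadipocyte lines (-0.01) and in 3T3-F442A adipocytes against them (0.04), and Eng in macrophages against macrophage lines (-0.02) and in ES cells with LIF against C3H-10T1/2 (-0.06).

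With 1 sample left out, the differences that crossed 0 ranged as follows. Cd34 had -0.04 to 0.02 in stroma-vascular cells against adipocytes, -0.10 to 0.21 in liver against tibialis muscle and -0.02 to 0.14 in ES cells with LIF against C3H-10T1/2. Cdh5 had -0.08 to 0.10 in macrophages against preadipocyte lines, -0.09 to 0.04 against macrophage lines, -0.06 to 0.12 between these lines, -0.13 to 0.10 in adipocytes against 3T3-F442A adipocytes and -0.12 to 0.13 in these against preadipocyte lines. Eng had -0.05 to 0.15, -0.08 to 0.13, -0.03 to 0.08, -0.02 to 0.09 and -0.01 to 0.09 in the same comparisons, -0.19 to 0.17 in tibialis muscle against myotubes and -0.09 to 0.13 in ES cells with LIF against C3H-10T1/2. Where 1 sample of a group was left, it was assumed to vary like the other groups.

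The replicate block added 1 member call, Cdh5 in stroma-vascular cells against adipocytes (0.44, adjusted p = 0.0286; 0.0832 for these groups without the block), and changed no other member call. Spots called there were 231 with the block and 112 without it when these groups were fitted alone, and 36 with all groups in the fit. Crossed numbers in liver against tibialis muscle gave 4 called spots, against 6 with the numbers as given; this was added after seeing the data. Counts of called spots moved more than those of members: over the settings they ran from 20 to 522 in stroma-vascular cells against adipocytes, 20 to 656 against tibialis muscle, 23 to 320 against liver, 3 to 44 against preadipocyte lines and 0 to 418 in macrophages against stroma-vascular cells. No fit used the membrane as a block, as the labels name none. Eng was too dim for the bright-spot filter and has no value there. With no reading of background, low intensities such as Eng in J774 cannot be placed above or below it.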
